A study of Homo sapiens with 2 samples.

Results

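The longest stretches of RNA bound by TARBP2 are described here: regions longer than 1000 nt on chromosomes 1 to 22. They were chosen by their measured length, the end minus the start of each deposited region. There were 514 of them among the 22514 regions on these chromosomes and the 23412 regions in all. The study holds 1 group of 2 replicates of MDA-LM2, a human breast cancer line derived by selection for spread to the lung. All cells received a vector for myc-tagged TARBP2 by transient transfection. The protein studied was thus the tagged one, at a level not given, and was pulled down by its tag. RNA cross-linked to it by UV light 48 hours later was recovered with an antibody to myc and sequenced (HITS-CLIP). No control group was part of the design as given. The 2 replicates share 1 list of regions on hg19 in which each region has the score 1. The replicate error and the read depth behind a region are therefore unknown, and the cell line could not be checked against marker genes.

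TARBP2 carries double-stranded RNA-binding domains and holds Dicer and its hairpin substrates together in microRNA processing. It also binds hairpins in messenger RNAs and their precursors, and in metastatic breast cancer cells it is known to lower the stability of transcripts with such elements. A CLIP region usually covers the stretch over which cross-linked fragments lie close together. A long region would then mean a long stretch of fragments without a wide break, whatever their number. How the regions were called here is not given.

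The 514 long regions made up 2.28% of the regions on chromosomes 1 to 22 (95% exact Clopper-Pearson interval 2.09 to 2.49%), and 9.96% of the 7886 kb that all regions covered. The shortest was 1002 nt and the longest 9742 nt. The median length was 1266 nt, and the middle 50% of them measured 1101 to 1592 nt. Most were not far above the threshold. Lengths of 1200 nt or less made up 221 of the 514, and 134 more were up to 1500 nt. Only 19 were between 3000 and 5000 nt, and 6 were longer. At the threshold the lengths ran on without a break: the shortest 3 long regions were 1002 nt each, and the longest 3 left out were 999, 999 and 1000 nt.

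**Figure D1:**
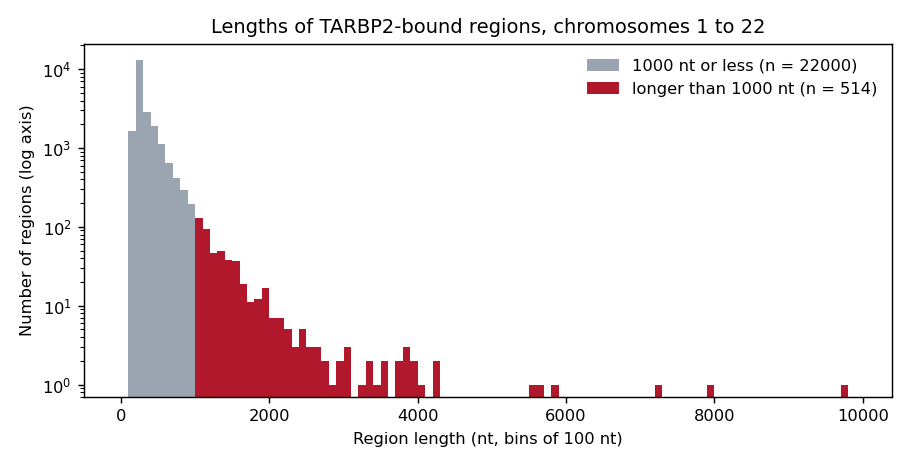
Number of regions (log axis) by region length in bins of 100 nt, for regions of 1000 nt or less (grey) and longer (red) on chromosomes 1 to 22. The counts fall steadily through the threshold, and 6 regions stand above 5000 nt.

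The longest region was 9742 nt, on the minus strand of chromosome 7 (chr7:102182792-102192533). The second and the third, of 7972 nt (chr7:102282505-102290476) and 7265 nt (chr7:102270689-102277953), lay on the same strand of the same chromosome, and so did the sixth, of 5580 nt (chr7:102171575-102177154). These 4 fell in 2 neighbouring stretches described below. The fourth was the longest plus-strand region, 5895 nt on chromosome 1 (chr1:564555-570449), and the fifth was 5662 nt on the minus strand of chromosome 2 (chr2:96497001-96502662). Chromosome 7 held 8 and chromosome 16 held 3 of the top 15 by length. Of the 15, 12 were on the minus strand, against 64.8% of all 514 long regions. A further long region within 10 kb on the same strand was present for 14 of the 15, the exception being the one on chromosome 1. The other regions among the 15 were 3798 to 4254 nt long.

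Genes, repeat copies and segmental duplications under these regions were not assigned, because no annotation or genome of hg19 was used here. Their sequences are not printed for the same reason. The loci are therefore named by their hg19 coordinates.

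Chromosomes 16 and 7 held more long regions for their number of regions than the others did. On chromosome 16, 55 of 977 regions were long (5.63%, exact interval 4.27 to 7.26%). On chromosome 7, 66 of 1629 were (4.05%, 3.15 to 5.13%). The median over the 22 chromosomes was 2.05%, and the other 20 chromosomes together had 1.97%. Chromosomes 20 (3.50%, 2.26 to 5.17%) and 19 (2.86%, 1.89 to 4.13%) followed. The lowest shares were on chromosome 18, with 1 long region of 393 (0.254%, 0.00644 to 1.41%), and on chromosome 13, with 2 of 434 (0.461%, 0.0559 to 1.65%). Together chromosomes 7 and 16 held 11.6% of regions and 23.5% of long regions. Part of this came from repeated long regions in the same place. When long regions within 10 kb on 1 strand were counted once, chromosome 16 still ranked first, with 2.87 loci per 100 regions against a median of 1.58, while chromosome 7 was at rank 5 with 2.03. The intervals cover counting error only and treat regions as independent, which those of 1 locus are not.

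**Figure D2:**
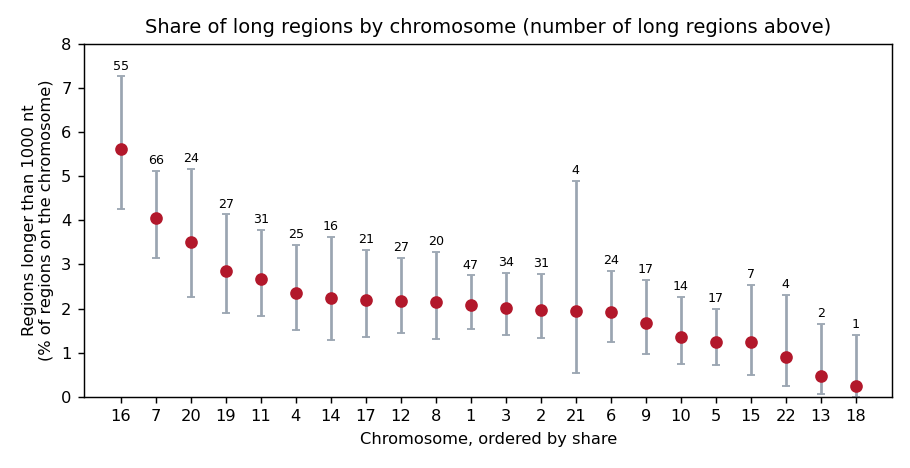
Share of regions longer than 1000 nt on each chromosome (points, in percent) with 95% exact Clopper-Pearson intervals, and the number of long regions above each. Chromosomes 16 (5.63%) and 7 (4.05%) lie highest, and chromosomes 13 and 18 lowest with 2 and 1 long regions.

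Of the 514 long regions 333 were on the minus strand, 64.8% (exact interval 60.5 to 68.9%). Among regions of 1000 nt or less the share was 60.5% (59.9 to 61.2%), and among all regions on these chromosomes 60.6%. The minus share of long regions was the higher one on 14 of 22 chromosomes. A difference in strand was thus not shown (two-sided exact sign test over chromosomes, p = 0.286, Benjamini-Hochberg adjusted p = 0.286 over 2 tests). With 1 count per locus the minus share was 61.3%. The comparison depended on which shorter regions it was made with. Regions of exactly 249 nt, the most common length, were 83.5% minus. They were left out in an alternative added after the data were seen. Without them the shorter regions were 54.8% minus, and long regions had the higher share on 17 of 22 chromosomes (exact sign test, p = 0.0169). Leaving out a mostly minus class from the shorter regions alone lowers their share by construction, so this test cannot show a strand difference. Against regions of 500 to 1000 nt the count was also 17 of 22 (exact sign test, p = 0.0169), but the shares differed by only 3.38 percentage points.

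Long regions seldom lay alone. A same-strand neighbour within 10 kb, measured from edge to edge, was found for 479 of the 514 (93.2%, exact interval 90.7 to 95.2%), against 45.3% of all regions on these chromosomes and 44.2% of those of 1000 nt or less (43.5 to 44.8%). The share was higher for long regions on 21 chromosomes out of 22 (two-sided exact sign test, p = 1.1e-05, adjusted p = 2.19e-05). The exception was chromosome 18 with its 1 long region, and 4 chromosomes had 4 long regions or fewer. The sign test cannot separate the difference from a joining of close stretches before deposit, which is taken up below. On chromosome 21, where 1 of the 4 long regions had such a neighbour, the shares were close (25% against 23.8%). All long regions had one on chromosomes 3, 7, 10, 13, 14, 15, 16 and 22, and on the other 12 chromosomes 81.5 to 96.8% did. Within 1 kb, 359 long regions (69.8%) had a neighbour, against 18.6% of the shorter ones. The median distance to the nearest neighbour was 407 nt for long regions (quartiles 184 and 1254 nt), and 16214 nt for shorter ones.

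The share with a neighbour was higher in longer classes from 250 to 2000 nt, but not below or above. A neighbour within 10 kb was found for 26.3% of regions of 101 to 200 nt, 25.4% of those of 201 to 248 nt and 26.6% of those of 249 nt. The share was 49.5% at 250 to 400 nt, 79.3% at 501 to 750 nt and 89.5% at 751 to 1000 nt. It was 93.8% at 1001 to 1500 nt, 95.8% at 1501 to 2000 nt and 85.7% (74.6 to 93.3%, n = 63) above 2000 nt. The threshold of 1000 nt therefore marked no step. Against regions of 500 to 1000 nt only, the difference was 11.3 percentage points (93.2% against 81.9%), and 19 chromosomes out of 22 showed it (exact sign test, p = 0.000855). No pair of regions on 1 strand was closer than 101 nt. The region names begin with merge. If closer stretches were joined before deposit, length and spacing are not independent measures, and their link was not tested apart from this.

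**Figure D3:**
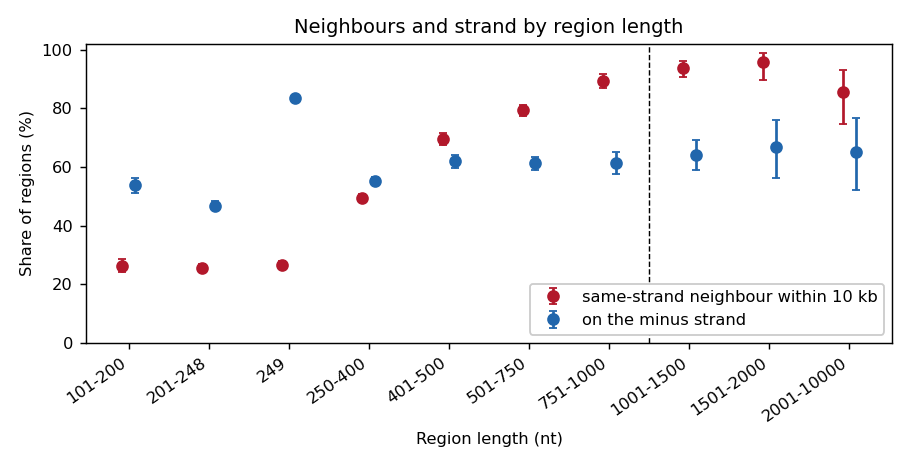
Share of regions (percent, with 95% exact Clopper-Pearson intervals) with a same-strand neighbour within 10 kb (red) and on the minus strand (blue), by region length in nt. The dashed line marks 1000 nt. The neighbour share is 26.3% in the shortest class and 93.8% just above the line, while the minus share peaks at 83.5% for 249 nt.

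The nearest neighbours were longer in longer classes, on both sides of the threshold. The nearest same-strand neighbour, where it lay within 10 kb, had a median length of 494 nt (quartiles 311 and 798 nt) for long regions, 391 nt for regions of 500 to 1000 nt and 325 nt for all regions of 1000 nt or less. It was itself over 1000 nt long for 74 of 479 long regions (15.4%), for 7.74% of the regions of 500 to 1000 nt with a neighbour and for 4.44% of all 9718 shorter ones with one. A gap of 200 nt or less separated 145 long regions (28.2%) from their nearest neighbour, against 13.2% of regions of 500 to 1000 nt and 4.5% of all those of 1000 nt or less. On chromosome 7, regions of 4241 nt (chr7:72461014-72465254) and 3898 nt (chr7:72465356-72469253) were parted by 101 nt, the smallest gap in the list.

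The 35 long regions without a neighbour within 10 kb lay on 14 chromosomes, 22 on the minus and 13 on the plus strand. Their median length was 1392 nt, and 3 exceeded 3000 nt. These were the region of 5895 nt on chromosome 1, one of 3791 nt on the minus strand of chromosome 11 (chr11:767166-770956), and one of 3252 nt on the plus strand of chromosome 19 (chr19:1032958-1036209). The most isolated was a region of 2358 nt on the plus strand of chromosome 21 (chr21:9825441-9827798), with its nearest same-strand neighbour 665189 nt away.

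Long regions at most 10 kb apart on 1 strand were taken as 1 locus, which gave 364 loci. Of these, 282 held 1 long region, and 82 held 2 or more, with 232 long regions (45.1%) between them. The 33 loci of at least 3 long regions held 134 of them (26.1%) on 14 chromosomes. Of the 33, 25 were on the minus strand, against 61.3% of all 364 loci. Chromosome 7 had 10 of the 33 loci and chromosome 16 had 5. Of the 15 loci with 4 or more long regions, 10 lay on these chromosomes, and the others lay on chromosomes 1, 2, 4, 17 and 20.

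A locus on the plus strand of chromosome 4 (chr4:1876135-1900717) and one on the minus strand of chromosome 16 (chr16:21859081-21889597) had the most long regions, 7 each. In the locus of chromosome 4, 11 regions covered 68.5% of 24.6 kb. Its long regions, in the direction of the strand, measured 3908, 1677, 1048, 1691, 1681, 1681 and 2541 nt. The fifth and the sixth thus had the same length, and they began 1905 nt apart. On chromosome 20, a minus-strand locus (chr20:30274974-30292756) had 6 long regions of 1109 to 3014 nt, and 11 regions covered 78.4% of it. On chromosome 2, 6 long regions of 1021 to 1967 nt followed each other within 10.4 kb (chr2:61735940-61746322, minus strand), and 7 regions covered 83.0% of that stretch. A minus-strand locus of chromosome 17 (chr17:62611804-62648038) was more open, with 5 long regions of 1151 to 2975 nt among 18 regions and 46.7% of 36.2 kb covered. On chromosome 7, a locus from 65990289 to 66016272 had 6 long regions, none above 1584 nt. On chromosome 1, a minus-strand stretch (chr1:1806025-1816411) held 4 long regions, and 7 regions covered 80.1% of its 10.4 kb.

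By summed length the first 3 loci were on chromosome 7, all on the minus strand. The locus from 102270689 to 102299115 held 5 long regions with 19519 nt in sum. The one from 102171575 to 102199368 held 4 with 18991 nt, and the one from 72451405 to 72469253 held 6 with 14270 nt. In the last of these 8 regions covered 89.2% of 17.8 kb, the highest share among the 10 loci with the most long regions.

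On chromosome 16, 5 stretches had several of their long regions at nearly the same distances. These were locus A (chr16:21438900-21456140), B (chr16:21859081-21889597), D (chr16:29509938-29536462) and E (chr16:30259370-30276457) on the minus strand, and C (chr16:22505487-22534969) on the plus strand. Distances were taken along the strand from the 5′ end of the first region of at least 3000 nt, or of the first long region in locus D, which has none of that size. That first region was 3980 nt in A, 4010 nt in B, 4254 nt in C and 3563 nt in E. In D its place was taken by regions of 1238 and 1875 nt, the second starting at 1353 nt.

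The next long region began at 9283 nt in A, 9267 nt in B, 9431 nt in D and 9368 nt in E, and earlier, at 7888 nt, in C. Another began at 12025 nt in A, 12059 nt in B, 11993 nt in D and 12013 nt in E. In C no long region began near either distance, but shorter regions of 656 nt at 9422 nt and 979 nt at 12079 nt did. A long region of 1379 to 1424 nt began at 15817 nt in A, 15797 nt in B, 15750 nt in C, 15662 nt in D and 15672 nt in E. This region thus had nearly the same place and length in all 5 loci. Loci A and B were closest, with lengths of 3980, 1565, 1921 and 1424 nt in A and 4010, 1559, 1935 and 1394 nt in B at these positions. Further along, long regions began at 25826 nt in B, 25502 nt in C and 25474 nt in D. Past the ends of loci A and E, shorter regions of 831 and 715 nt began at 25838 and 25673 nt. Together the 5 loci held 27 of the 55 long regions of chromosome 16 (49.1%).

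**Figure D4:**
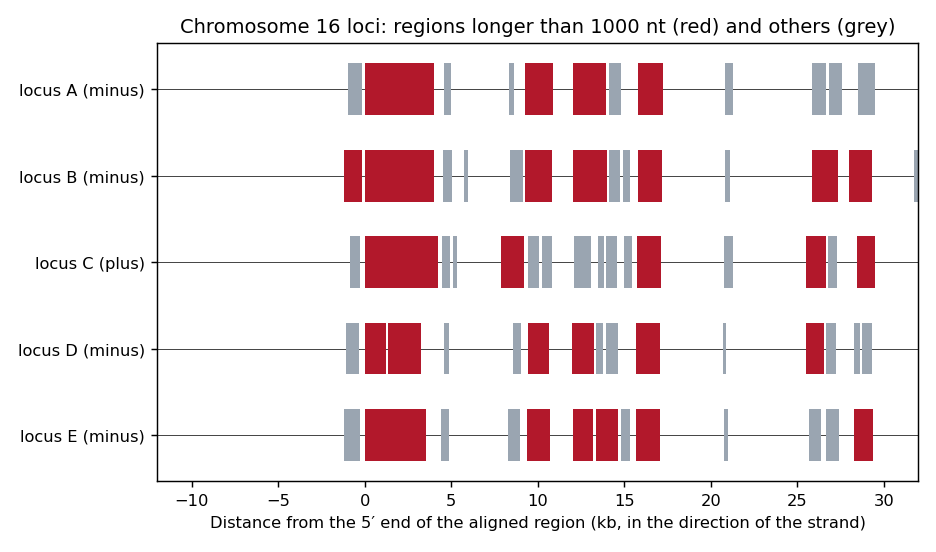
Regions of 5 loci of chromosome 16 drawn along their strand, as distance in kb from the 5′ end of the region they are aligned on, with regions longer than 1000 nt in red and others in grey. Loci A to E are in order of position. Long regions begin at 9267 to 9431 nt, at 11993 to 12059 nt and at 15662 to 15817 nt in loci A, B, D and E, and at 15750 nt in C. In C shorter regions of 656 and 979 nt begin at 9422 and 12079 nt.

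The arrangement around the longest regions was compared by the correlation of covered 20 nt bins in windows of 15 kb to either side of their 5′ ends, with shifts of up to 2 kb. The highest r over the shifts was kept for each pair. Each window also holds a region of at least 3000 nt that begins at its middle. Both can raise r, also between unlike stretches. Of the 25 regions of at least 3000 nt, 16 had 5 or more other regions in the window and were compared, in 117 pairs of separate windows. Over all pairs the median r was 0.455 (quartiles 0.266 and 0.558, 1500 bins each). The 6 pairs between loci A, B, C and E of chromosome 16 had r of 0.761 to 0.889. Among other pairs the highest was on chromosome 7, between the regions of 3898 nt (chr7:72465356-72469253) and 3306 nt (chr7:74296204-74299509), with r = 0.837. Between different chromosomes the highest r was 0.657, for the regions of 4254 nt on chromosome 16 and 3908 nt on chromosome 4. The neighbouring bins of a region are not independent, pairs share windows, and these values are descriptive.

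In this pair of loci of chromosome 7 the second long region began at 3999 nt and measured 4241 nt in the first locus, and it began at 3826 nt and measured 3798 nt in the other. The later part differed in how it was divided. The first locus had 4 more long regions, of 1553, 1767, 1724 and 1087 nt, where the other had 1 of 1226 nt and shorter ones. The 2 loci that hold the longest regions of all had a lower r over the windows of 15 kb. Their regions of 9742 and 7972 nt gave r = 0.586, reached at a shift of -1120 nt. This was below the highest r between different chromosomes, 0.657. After the region of 9742 nt, long regions of 1485 nt at 13688 nt and 5580 nt at 15379 nt followed, 206 nt apart. After the region of 7972 nt, 1 long region of 7265 nt followed at 12523 nt. These distances are given before that shift. The region of 5580 nt began beyond the window of 15 kb. At that shift most of the region of 7265 nt lay outside it too. The r therefore does not compare this part of the 2 loci. Of all 514 long regions, 36 lay in the 5 loci of chromosome 16 or in the first pair of chromosome 7. Whether these stretches are copies of the same sequence, and whether reads were shared between them, was not tested.

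**Figure D5:**
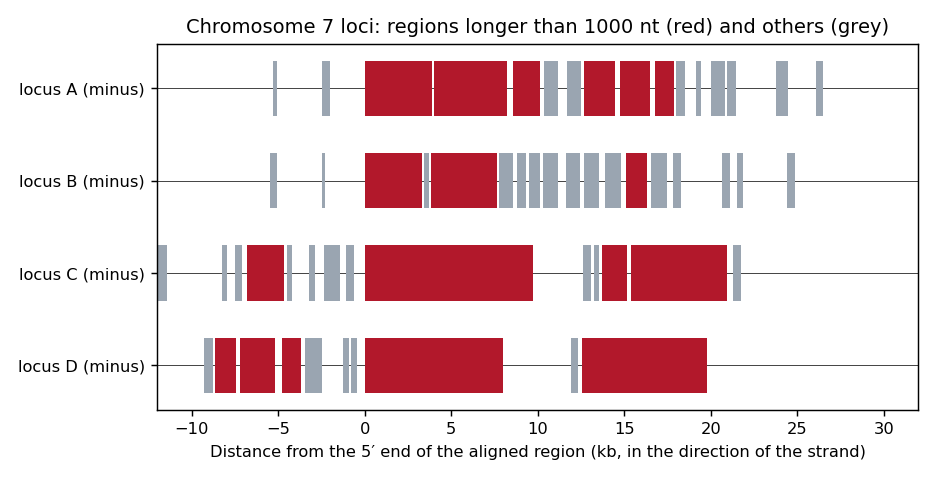
Regions of 4 minus-strand loci of chromosome 7 drawn along the strand, as distance in kb from the 5′ end of the region they are aligned on, with regions longer than 1000 nt in red and others in grey. Loci A and B start at 72451405 and 74283206, and loci C and D at 102171575 and 102270689. A and B open with a pair of regions of 3306 to 4241 nt each, and C and D hold the regions of 9742 and 7972 nt.

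A region on the other strand overlapped 13 of the 514 long regions (2.53%, exact interval 1.35 to 4.29%) and 282 of the 22000 shorter ones (1.28%, 1.14 to 1.44%). Longer regions have more room for an overlap. Per Mb of region length there were 16.6 such long regions and 39.7 shorter ones. In 8 of the 13, over 50% of the region was overlapped, and these lay on chromosomes 1 and 5. On chromosome 5, 2 plus-strand regions of 1010 and 1536 nt and 2 minus-strand regions of 1175 and 1040 nt lay between 134259268 and 134263692. The regions of 1010 and 1040 nt overlapped each other by 799 nt, and the other overlaps were with shorter regions. Overlap covered 56.5 to 87.6% of each of the 4.

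The overlap reached furthest at the start of chromosome 1. The plus-strand region of 5895 nt lay opposite 2 long minus-strand regions, of 2454 nt (chr1:564345-566798) and 3324 nt (chr1:566973-570296), which together overlapped 94.5% of it. The region of 3324 nt lay within it along its whole length. This part of chromosome 1 is known in hg19 for a long nuclear copy of mitochondrial DNA. In GENCODE 29, which is on GRCh38, the longest run of neighbouring mitochondrial pseudogenes on chromosome 1 has 7 members from MTND1P23 to MTCO3P12, all on the plus strand, and spans 5861 nt. Coordinates were not converted, so the match in place was not tested. The mitochondrial genome itself had 4 regions, the longest of 634 nt.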

How the data were processed

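The 2 samples form 1 group, named from the titles. Per the labels' protocols, a published HITS-CLIP procedure was used, and the submitters' processing notes name Bowtie and the build hg19. The sources used here do not give how regions were called and filtered, or how multiply aligned reads were handled. The deposited score is 1 in each region. Starts were deposited 0-based and are printed 1-based. No depth or replicate error can be given.

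Lengths, gaps to same-strand neighbours, loci and overlaps were computed from the coordinates. Shares have 95% exact Clopper-Pearson intervals. Long and shorter regions were compared within chromosomes by two-sided exact sign tests over 22 chromosomes, with Benjamini-Hochberg adjustment over 2 tests. Chromosomes are not replicates of the experiment. Regions were named by length rank, by long regions or summed length per locus, and by distance from the threshold; those named for overlap, isolation or layout were picked with their values in view, as was the minimum of 5 other regions per window. The members and comparisons were chosen with earlier results of these data known. Planned gene and duplication analyses, and the planned gene lists, were not used here for want of hg19 references. The scripts were tested on simulated data. Tables were handled in pandas 2.3.3 and numpy 2.4.6, tests run in scipy 1.17.1 and figures drawn in matplotlib 3.10.9, under Python 3.11.15.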

Additional observations from a re-analysis of the deposited data

Results flagged for a closer look

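Chromosome X was outside the set described above and also held long regions. There were 9 among its 894 regions (1.01%, 95% exact Clopper-Pearson interval 0.461 to 1.90%), where a count of 0 would have allowed up to 0.336% (3 counts of the total). All 9 lay on the minus strand, in 7 loci, with lengths of 1018 to 2394 nt. The minus share of all regions on chromosome X was not computed, so no strand difference can be read from this. On chromosomes 1 to 22, 60.6% of all regions were on the minus strand. The longest of the 9 was at chrX:73496693-73499086 and the next, of 2294 nt, at chrX:77082404-77084697. The limit and the interval cover counting error only.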

How the results depend on the processing

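In 14 of 19 alternatives the call was as before, or the count moved by less than 1.5 times. The higher minus share passed the threshold when compared with regions of 500 to 1000 nt (difference 3.38 percentage points, exact sign test, p = 0.0169) and, in an alternative added after the data were seen, without regions of the most common length (10.0 percentage points, exact sign test, p = 0.0169). That removal lowers the minus share of the shorter regions by construction. Over the other alternatives the difference was 0.718 to 5.43 percentage points and did not pass. The difference in neighbours was 11.3 to 51.2 percentage points and passed in each. None of these alternatives removes the possible link of length and spacing named above. The 82 loci of 2 or more long regions became 182 at a threshold of 750 nt and 22 at 1500 nt, by construction, and 76 to 100 at joining distances of 5 to 100 kb. Joining regions within 500 nt, also added later, gave 1139 long regions in place of 514. The alternatives for genes and duplicated sequence were not run. No paired analysis was possible because the single list joins both replicates of 1 group; leaving out a replicate was impossible too. Depth is unknown, so regions could not be weighed by it.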

Other observations

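The smallest gaps decide how many regions count as long. When same-strand regions within 200 nt of each other were joined, the regions on chromosomes 1 to 22 fell to 21916, and 705 of them (3.22%) were longer than 1000 nt. The longest was still 9742 nt, and those above 5000 nt rose from 6 to 11. When regions within 500 nt were joined, 1139 of 20808 (5.47%) were long and 38 were above 5000 nt. The longest was then a stretch of 18298 nt made of 13 regions on the minus strand of chromosome 7 (chr7:74281212-74299509). It holds the regions of 3798 and 3306 nt described above.

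The names of the regions hold running numbers along each chromosome and strand. Regions whose next or previous number is also in the list made up 384 of the 514 long regions (74.7%), 59.1% of those of 500 to 1000 nt and 37.5% of all regions of 1000 nt or less. What the other numbers stood for is unknown here.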
